A study of Ambystoma mexicanum with 198 samples.

Results

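MBP and NGFR were followed through forelimb regeneration in the axolotl with every probe that carries either symbol in the annotation of the chip or in the gene lists of the study. The symbol MBP is paired with 2 probes and NGFR with 1, 2 of the 8639 genes with a symbol and 3 of the 20035 probes tested. The brighter MBP probe (axo00150-r_at) and the dimmer MBP probe (axo00151-r_at) are described apart, because the levels of different probes cannot be set against each other. The NGFR probe (axo08282-f_at) also stands in a list of early-changing genes that the study chose on these same samples, so its early change here is not independent evidence. That list holds the probes used here for BDNF, NRG1, COL17A1, ITGA6, LEP and ADIPOQ as well, among others. Their early changes are not independent evidence either.

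MBP encodes myelin basic protein, which binds the inner faces of the membrane turns and holds compact myelin together. In limb nerves, myelin is made by Schwann cells, and in mammals Schwann cells that lose contact with axons shut down their myelin genes. NGFR encodes the p75 neurotrophin receptor, which binds nerve growth factor, BDNF and the other neurotrophins, and pairs with sortilin-family receptors for their uncleaved forms. In mammals NGFR is low in myelinating Schwann cells and high in immature and denervated ones, and it is also made by basal keratinocytes and some mesenchymal cells, so it does not mark Schwann cells alone.

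Forelimbs of *Ambystoma mexicanum* were amputated through the mid zeugopod (the forearm). The distal-most 1 mm of tissue was collected with its tissues together, among them skin, muscle, nerve and skeleton. The study states that its early samples held more of the stump and its later ones proportionally more regenerated tissue. The mix of tissue therefore differed between time points. RNA of each tissue sample was hybridized to 1 custom Affymetrix array. The later groups were collected at 0.5, 1, 1.5, 2, 3, 4, 5, 7, 9, 10, 12, 14, 16, 18, 20, 22, 24, 26 and 28 days post-amputation (DPA). The day 0 group was collected at the time of amputation, and the study calls it non-amputated. Each of the 20 time points had 10 arrays, except 9 at 16 DPA and 9 at 28 DPA. The animals were 6 to 10 months old and were all amputated in the same way, and their strain and genotype are not given in the sources used here. It is not stated which limbs came from the same animal, so p-values measure the spread between these samples.

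Values are log2 intensities, so a difference of 1 is a doubling. They ran from 2.59 to 15.19 over all probes and arrays, with array medians of 5.70 to 5.90, and arrays of the same time point correlated across probes, which are not independent, at r = 0.962 to 0.994. Replicates 1 to 5 and replicates 6 to 10 carry different letter codes in the labels, and the codes change along the time course, from 2 to 3 DPA and from 18 to 20 DPA in both sets of replicates and also from 9 to 10 DPA in replicates 6 to 10. The meaning of the letters is not given in the sources used here. For 2 of the 0.5 DPA arrays the source name gives another time than the title and time label, and they were kept at 0.5 DPA.

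The cell type that the genes stand for could be checked only in part. Of the markers chosen for myelinating Schwann cells, only PMP22 and PRX have a probe named by their symbol, and of those for the lineage only ERBB3. PMP22 was bright at day 0 (10.33 ± 0.64, SD, n = 10 arrays), PRX averaged 4.99 ± 0.22 and ERBB3 3.67 ± 0.15, and the other markers were not analysed here. With so few markers measured, MBP and NGFR are called by their gene names and not as a readout of Schwann cells.

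MBP read high at day 0 and fell through the first 10 days to a level that it kept to 28 DPA. On the brighter probe the 10 arrays of day 0 ran from 8.83 to 12.64, with a median of 11.05. Those of 1 DPA ran from 8.43 to 11.08 (median 9.85), those of 3 DPA from 6.08 to 10.03 (median 8.45) and those of 5 DPA from 5.11 to 8.49 (median 7.92). From 5 DPA on, every array of every time point was below the lowest array of day 0.

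**Figure D1:**
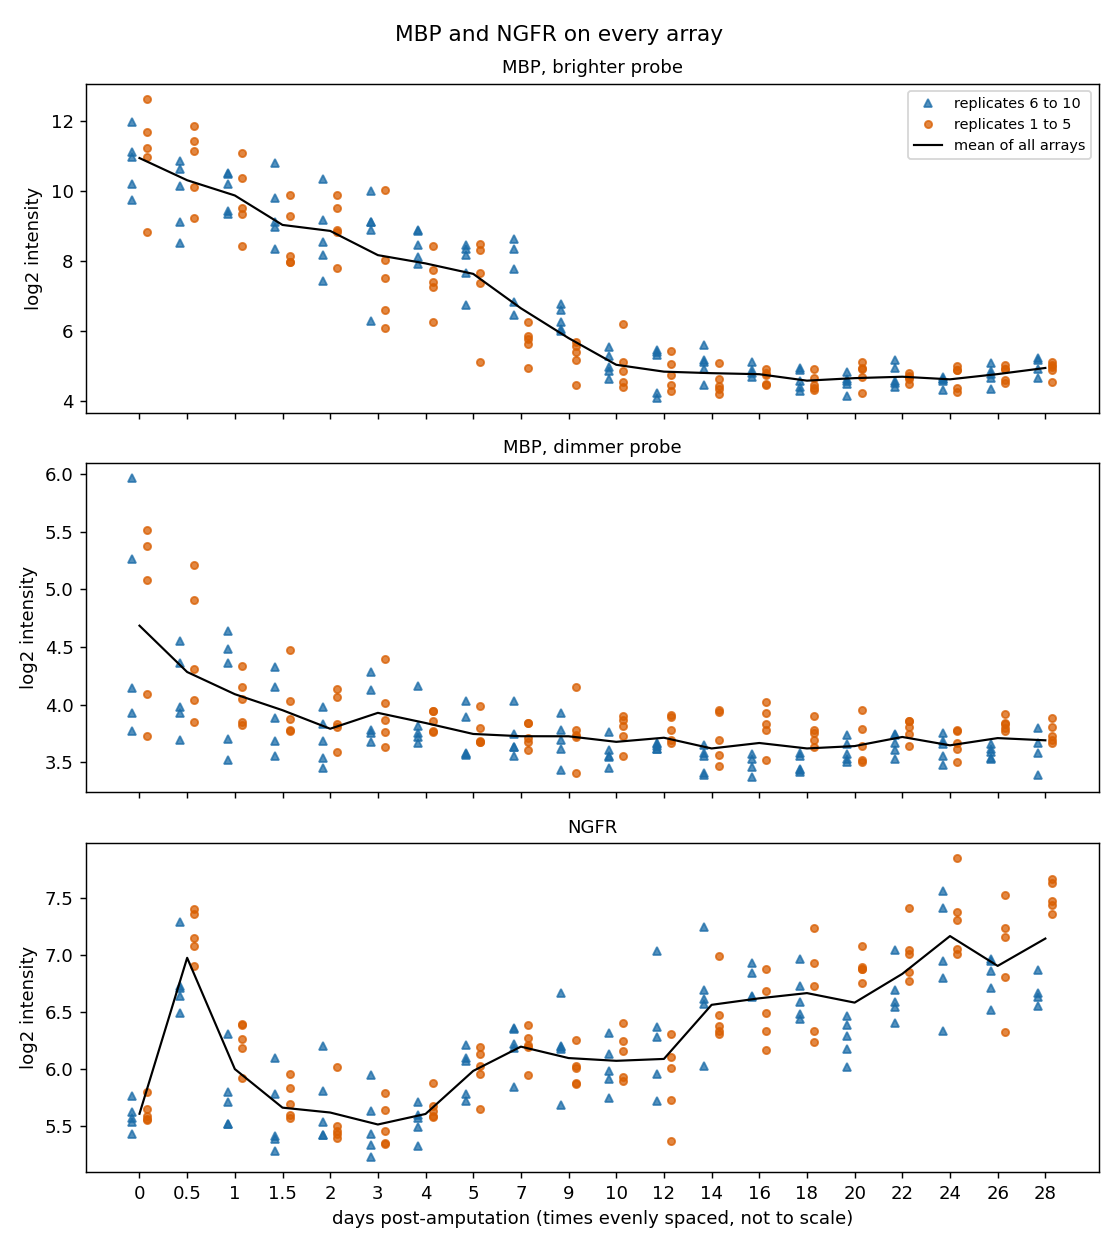
log2 intensity (y axes) of the brighter MBP probe, the dimmer MBP probe and the NGFR probe on each array, by days post-amputation (x axis, times evenly spaced), with triangles for replicates 6 to 10, circles for replicates 1 to 5 and a line through the mean of all arrays. MBP fell to a mean of 5.03 by 10 DPA and stayed near it, while NGFR had a peak at 0.5 DPA, a return to the day 0 level and a second, slower increase to 7.15 at 28 DPA.

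The decline then continued at 7 DPA, where the arrays ran from 4.94 to 8.62 (median 6.36), and at 9 DPA, where they ran from 4.44 to 6.77. At 10 DPA, the early bud stage, they ran from 4.38 to 6.19 (median 4.92), at 18 DPA from 4.29 to 4.94 (median 4.51) and at 28 DPA, the palette stage, from 4.53 to 5.22 (median 4.98). The spread between arrays shrank with the level, from an SD of 1.11 for day 0 and 1.49 for 3 DPA to 0.25 for 18 DPA. The probe stood above 93.8% of all probes by its mean at day 0, above 72.4% on day 3 and above 34.3% on day 18.

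Against day 0, the brighter MBP probe was lower past the threshold (limma, Benjamini-Hochberg adjusted p under 0.05 and a log2 difference of at least 0.58, which is 1.5-fold) at 17 of the 19 later time points, from 1.5 to 28 DPA. The difference was −0.63 at 0.5 DPA (SE 0.46, adjusted p = 0.467) and −1.07 at 1 DPA (SE 0.40, adjusted p = 0.0634), neither past the threshold. MBP fell by 1.91 at 1.5 DPA (SE 0.43, adjusted p = 0.00142) and by 2.77 at 3 DPA (SE 0.55, adjusted p = 0.000306), which is 6.84-fold. It fell by 5.91 at 10 DPA (59.9-fold, SE 0.36, adjusted p = 3.29e-11), by 6.36 at 18 DPA (82.1-fold, SE 0.34, adjusted p = 1.12e-12) and by 6.00 at 28 DPA (63.8-fold, SE 0.35, adjusted p = 1.99e-11). In bulk tissue such a fall cannot tell fewer MBP-expressing cells from less MBP RNA per cell. The part of the shift from stump to regenerated tissue in the samples was not tested. Among the 10 arrays of day 0, replicate 5 had the lowest value of both MBP probes (8.83 and 3.72), and without replicate 5 of both groups the difference at 1 DPA was −1.25 (adjusted p = 0.0219), past the threshold.

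Many genes fell over the same times, and the calls of MBP stand beside those shares. Of all probes, 7.28% fell past the threshold at 1.5 DPA, 7.54% at 2, 9.74% at 3, 9.31% at 4, 9.12% at 5, 9.17% at 7, 9.35% at 9, 9.67% at 10 and 9.46% at 12 DPA. The shares were 9.02% at 14, 8.67% at 16, 8.70% at 18, 8.78% at 20, 8.54% at 22, 9.30% at 24, 9.03% at 26 and 8.31% at 28 DPA. The 13 time points at which the brighter MBP probe did not overlap day 0 ran from 5 to 28 DPA. Over these, 4.92% of all probes lay wholly below day 0 at 5 DPA, 4.85% at 7, 5.33% at 9, 6.00% at 10, 5.53% at 12, 5.53% at 14, 5.23% at 16, 5.63% at 18, 5.03% at 20, 4.95% at 22, 5.67% at 24, 5.69% at 26 and 5.25% at 28 DPA. The median of all probes moved by at most 0.07 against day 0 at any time.

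No single sharp step was called in the decline. In none of the 19 intervals between neighbouring time points did either MBP probe pass the threshold in limma, and the count was also 0 with the t-test of the study's methods. Few of all probes passed in these intervals in either direction, 4.15% from 0 to 0.5 DPA and 2.56% from 2 to 3 DPA. The share was 0.0749% from 7 to 9 DPA and 0.00998% from 9 to 10 DPA, and no probe passed in the intervals from 10 to 18 DPA. A missing call there does not show a lack of change. At an unadjusted p under 0.05 the brighter probe passed in 2 intervals, 1 to 1.5 DPA and 9 to 10 DPA, and the dimmer probe in 0. In the order of the 20 means, only the step between 10 DPA (5.03 ± 0.53) and 9 DPA (5.79 ± 0.70) was larger than the SD of both groups. The levels of the other 18 pairs of neighbours in that order did not differ beyond their spread.

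Of the 5 longer spans compared, 4 lie within 1 series of letter codes in both sets of replicates, while the codes change between 18 and 28 DPA. The brighter probe was lower at 2 DPA than at day 0 by 2.08 (SE 0.42, adjusted p = 0.000563) and lower at 9 than at 3 DPA by 2.37 (SE 0.49, adjusted p = 0.00186), where 2.91% of all probes fell. Both falls were of like size in the 2 sets of replicates, at −2.07 in replicates 6 to 10 and −2.09 in replicates 1 to 5 for 2 against 0 DPA. For 9 against 3 DPA they were −2.35 in replicates 6 to 10 and −2.39 in replicates 1 to 5. After the early bud stage MBP changed little, with a difference of −0.45 at 18 against 10 DPA (adjusted p = 0.0714), 0.29 at 28 against 20 DPA (adjusted p = 0.257) and 0.36 at 28 against 18 DPA (adjusted p = 0.071). None of these 3 passed, and no increase of MBP by 28 DPA was called.

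At 7 and 9 DPA, 2 of the 20 time points, the brighter MBP probe read higher in replicates 6 to 10, but the interaction did not pass. How many of all probes had sets without overlap was not counted. At 7 DPA it read 6.45 to 8.62 in replicates 6 to 10 and 4.94 to 6.27 in replicates 1 to 5, and at 9 DPA 6.00 to 6.77 in replicates 6 to 10 and 4.44 to 5.69 in replicates 1 to 5, with no overlap at either time. Replicates 6 to 10 changed by −3.20 from day 0 to 7 DPA and replicates 1 to 5 by −5.38, a difference of 2.18 (SE 0.81) that did not pass over all probes (interaction in limma, adjusted p = 0.0845), whereas 2597 of the 20035 probes did. At 9 DPA the difference between the sets was 1.355 (SE 0.72, interaction adjusted p = 0.277), when 7.71% of all probes passed. By 10 DPA the mean was 5.05 for replicates 6 to 10 and 5.01 for replicates 1 to 5. The letter codes of the arrays and the sets cannot be told apart.

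The dimmer MBP probe gave the same direction at a much lower level. Its arrays ran from 3.42 to 3.90 at 18 DPA (mean 3.62 ± 0.16), against 3.72 to 5.96 at day 0 (mean 4.69 ± 0.83). It fell by 1.07 at 18 DPA (2.09-fold, SE 0.25, adjusted p = 0.00138) and was lower past the threshold at the same 17 time points as the brighter probe, but its arrays overlapped those of day 0 at all 19. Only 9.31% of all probes had a lower mean at 18 DPA, against 36.0% at day 0, so its fall ran into the low end of the measured range. With replicates 6 to 10 alone it passed at 3 of the 19 time points. Over the 20 time means the 2 MBP probes correlated at r = 0.857 (Spearman's rho = 0.919), a description over means that share their arrays.

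**Figure D2:**
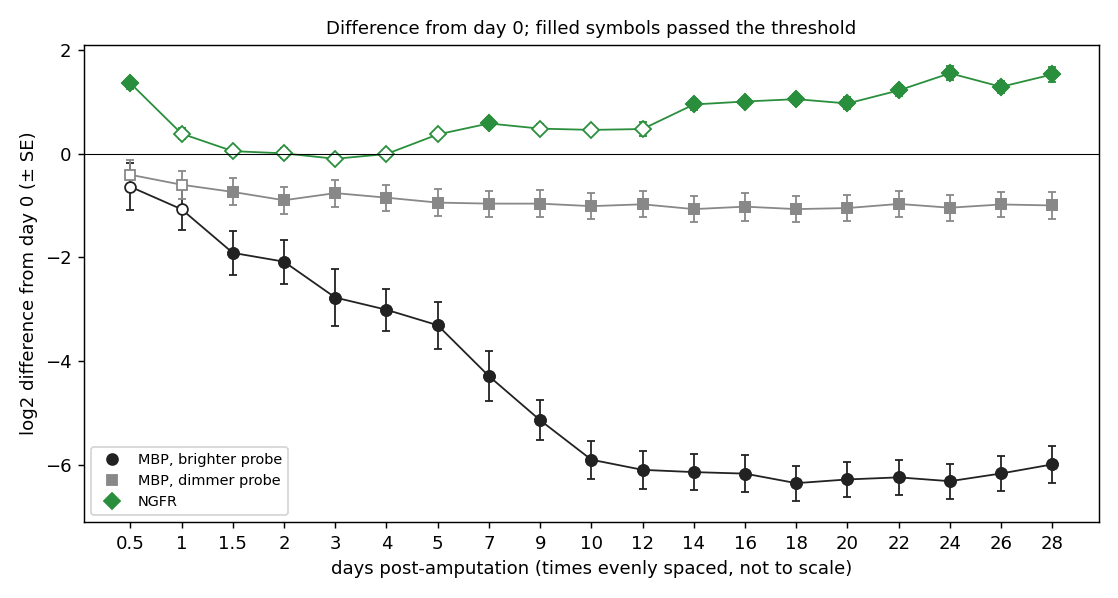
log2 difference from day 0 with its SE (y axis) for the brighter MBP probe (circles), the dimmer MBP probe (squares) and NGFR (diamonds) at each later time (x axis, evenly spaced), with filled symbols where the threshold was passed. MBP reached −5.91 at 10 DPA, and NGFR was 1.37 above day 0 at 0.5 DPA, 0.09 below it at 3 DPA and 1.54 above it at 28 DPA.

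MBP was set beside the other genes of myelin, of which 11 of the 18 in the list have a probe with their symbol. At 3, 10, 18 and 28 DPA 4 of the 11 fell, and these were PMP22 and CLDN19, which encode a compact myelin protein and a tight junction protein of the myelin sheath, UGT8, which makes the galactolipids of myelin, and GLDN, which encodes gliomedin, a Schwann cell ligand at nodes of Ranvier. At 1 DPA only CLDN19 and UGT8 had fallen, 2 of the 11, when 4.97% of all probes fell. The median difference of the 11 was −0.02 at 3 DPA and −0.06 at 18 DPA, against 0.01 and 0.06 over all probes.

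GLDN averaged 4.99 ± 0.47 at 18 DPA and 9.35 ± 0.59 at day 0, a difference of −4.36 (SE 0.22, adjusted p = 7.37e-13). PMP22 averaged 7.27 ± 0.44 at 18 DPA and 10.33 ± 0.64 at day 0, a difference of −3.06 (SE 0.23, adjusted p = 5.21e-10). UGT8 fell by 2.69 (SE 0.29, adjusted p = 1.34e-07) and CLDN19 by 2.39 (SE 0.25, adjusted p = 6.17e-08). All 4 fell by less than the brighter MBP probe (6.36) but by more than the dimmer one (1.07) at 18 DPA on the log2 scale. The falls therefore give no order of genes, and the difference between probes was not tested. Of the other 7 genes, CNP, PRX, NFASC, CNTN1 and CNTNAP1 passed in neither direction at any of the 5 time points and had day 0 means of 3.92 to 4.99.

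MAL and NDRG1, which encode a membrane protein of myelin and a stress-responsive protein needed for myelin upkeep in mammals, went the other way, and both are also made outside Schwann cells. Whether the signal of the 4 genes that fell came from Schwann cells alone was not tested either. NDRG1 averaged 10.38 ± 0.55 at 18 DPA and 8.77 ± 0.56 at day 0 (difference 1.61, SE 0.23, adjusted p = 6.81e-06), and it had passed at 3 and 10 DPA too, but not at 28 DPA (0.46, adjusted p = 0.272). MAL averaged 8.99 ± 0.56 at 18 DPA and 8.03 ± 0.95 at day 0 (difference 0.96, SE 0.32, adjusted p = 0.0188), and passed at 10 DPA (1.16, adjusted p = 0.0284) and 28 DPA (1.05, adjusted p = 0.0189). With replicates 6 to 10 alone the MAL difference was −0.10 at 10 DPA, 0.19 at 18 DPA and 0.55 at 28 DPA, none past the threshold. MAL also passed at none of these times with the t-test of the study's methods at p = 0.01. The MAL call at 10 DPA was lost without replicate 2 (0.93), 3 (0.97), 4 (1.05), 5 (1.02) or 6 (1.04), at 18 DPA without replicate 3 (0.70), 5 (0.82) or 6 (0.85) and at 28 DPA without replicate 2 (0.92) or 5 (0.90). The shares of all probes that rose were 4.95% at 1, 8.87% at 3, 11.7% at 10, 11.6% at 18 and 10.7% at 28 DPA.

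The fall of each probe was also expressed as a share of its log2 fall to its own lowest time mean, a measure that depends on how far the probe can fall before it reaches the low end of its range. By it, UGT8 had covered 43.3% at 1 DPA and 84.7% at 3 DPA, and CLDN19 33.6% and 77.7%. The brighter MBP probe had covered 16.8% at 1, 43.6% at 3, 52.0% at 5, 80.9% at 9 and 92.9% at 10 DPA. PMP22 and GLDN were near MBP at 3 DPA, at 53.1% and 42.8%, and PMP22 was at 71.1% at 28 DPA, when MBP was at 94.3%. The dimmer MBP probe had covered 55.8% at 1 DPA and 71.0% at 3 DPA. Since 2 probes of MBP differed this much, the shares give no order of genes, and no test was made of them.

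**Figure D3:**
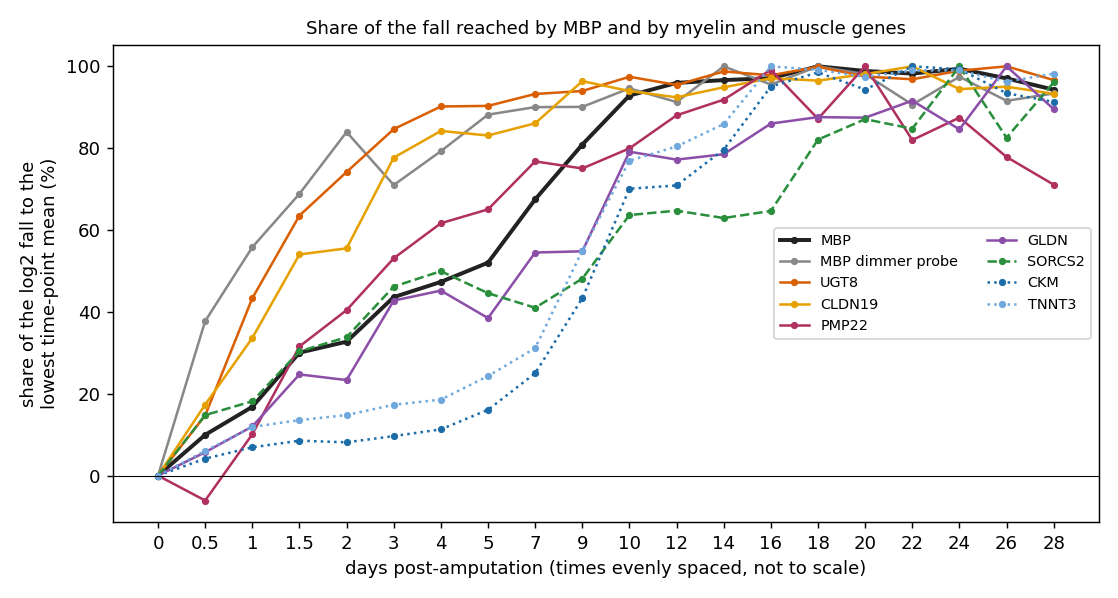
Share of the log2 fall from day 0 to the lowest time mean, in percent (y axis), reached at each time (x axis, evenly spaced) by the brighter MBP probe (black), the dimmer MBP probe (grey), 4 other myelin genes (coloured solid lines), the neurotrophin co-receptor gene SORCS2 (dashed) and the muscle genes CKM and TNNT3 (dotted). At 5 DPA the brighter MBP probe had covered 52.0% of its fall, the dimmer one 88.2%, UGT8 90.3% and CKM 16.1%.

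Muscle, pigment cell, vessel and fibroblast markers fell in the same samples, fat cell markers went both ways, and their part in the MBP result was not tested. Of 9 skeletal muscle genes 5 were down at 1 DPA (TNNT3, TNNI2, CKM, TTN and CASQ1), and 6 at 3 DPA. Neither MBP probe passed at 1 DPA, but the brighter one was 1.07 lower (SE 0.40, limma adjusted p = 0.0634). TNNT3 was 1.22 lower, TNNI2 0.82, CKM 0.69, TTN 0.64 and CASQ1 1.48, so the calls give no order in time. All 9 were down at 10, 18 and 28 DPA, and their summed level (the log2 of the sum over the list) ran from 7.98 to 11.17 at 18 DPA, against 16.98 to 17.24 at day 0. Of all probes, 4.97% fell at 1 DPA, 9.74% at 3, 9.67% at 10, 8.70% at 18 and 8.31% at 28 DPA. By the share of the fall, the 9 genes ran from 8.04% to 53.1% at 5 DPA (median 16.1%), among them CKM, creatine kinase of muscle, at 16.1% and TNNT3, a fast troponin, at 24.3%. CASQ1 was at 41.1% and DES at 53.1%, against 52.0% for the brighter MBP probe and 88.2% for the dimmer one. As above, these shares give no order of genes. At 3 DPA, when MBP was 2.77 lower, the summed muscle level was 15.77 to 16.63. Of the 3 melanocyte genes 3 were down at 18 DPA (summed level 7.03 to 9.88, against 8.94 to 11.75 at day 0), of the 5 endothelial genes 3 (8.73 to 9.76, against 9.50 to 10.77), and of the 6 fibroblast genes 4 (13.69 to 14.39, against 15.07 to 15.45). Of the 3 fat cell genes, ADIPOQ, which encodes adiponectin, was down at all 19 later time points (−6.56 at 18 DPA, adjusted p = 1.99e-12), LEP, which encodes leptin, was up at 17 (1.65 at 18 DPA, adjusted p = 0.00037), and LPL did not pass at 1, 3, 10, 18 or 28 DPA. Their summed level was 5.12 to 7.83 at 18 DPA, against 11.36 to 11.86 at day 0. Of 5 markers of macrophages, which clear myelin debris, 1 was up at 1 DPA and 5 at 3 and 10 DPA. At 18 DPA 1 of the 5 was up, and at 28 DPA 0. Of all probes, 4.95% rose at 1 DPA, 8.87% at 3, 11.7% at 10, 11.6% at 18 and 10.7% at 28 DPA. The summed macrophage level was 11.52 to 12.82 at 3 DPA, against 9.98 to 10.83 at day 0.

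NGFR took a different course, with an early peak, a return to its day 0 level and a second increase. At day 0 its 10 arrays lay between 5.44 and 5.80 (median 5.58). At 0.5 DPA they lay between 6.50 and 7.41 (median 7.00), all above day 0. At 1 DPA they lay between 5.52 and 6.40, and at 3 DPA between 5.23 and 5.95, across the day 0 range.

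NGFR was 1.37 higher at 0.5 DPA than at day 0 (2.58-fold, SE 0.11, adjusted p = 4.59e-09), when 2.80% of all probes rose. It fell by 0.98 from that level within the next 0.5 days, to 6.00 ± 0.35 at 1 DPA, against 6.98 ± 0.32 at 0.5 DPA (SE 0.14, adjusted p = 0.000254), an interval in which 0.784% of all probes fell and 0.170% lay wholly lower. Without the 2 arrays of conflicting labels the differences were 1.41 (NGFR, 0.5 DPA against day 0) and −1.02 (NGFR, 1 against 0.5 DPA), and with replicates 6 to 10 alone the second did not pass (adjusted p = 0.0588). From 1.5 to 4 DPA NGFR was at its day 0 level, with differences from day 0 of 0.05, 0.01, −0.09 and 0.00 in the order of time and adjusted p between 0.383 and 0.986. The changes at 0.5 and 1 DPA were the only ones of the 19 neighbouring intervals in which NGFR passed. In the intervals after 1 DPA at most 2.56% of all probes passed in either direction, and in most of them few or none.

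The second increase of NGFR was gradual. The differences from day 0 were 0.38 at 5, 0.59 at 7, 0.49 at 9, 0.46 at 10 and 0.48 at 12 DPA, of which only the one at 7 DPA (SE 0.07, adjusted p = 6.12e-07) reached the fold limit. That call lay at the limit. It was lost with arrays centred on their medians (0.579), with quantile normalization (0.579) or with replicates 1 to 5 alone (0.57). Without replicate 2, 4, 6 or 9 it was lost too (0.56 to 0.58). NGFR then averaged 6.67 ± 0.31 at 18 DPA, against 5.61 ± 0.11 at day 0 (difference 1.06, SE 0.10, adjusted p = 2.44e-08). The highest means were at 24 DPA, with arrays from 6.34 to 7.85 (median 7.18), and at 28 DPA, with arrays from 6.55 to 7.67 (median 7.36). These were 1.56 (2.94-fold, SE 0.13, adjusted p = 4.06e-09) and 1.54 (2.90-fold, SE 0.14, adjusted p = 2.97e-08) above day 0.

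In all, NGFR rose past the threshold at 10 of the 19 later time points (0.5, 7 and 14 to 28 DPA), and did not overlap day 0 at the same 10. At 5 others (1, 5, 9, 10 and 12 DPA) the adjusted p was under 0.05 and the fold limit was not reached, and it fell at none. Of all probes, 9.39% rose at 7, 11.0% at 14, 11.0% at 16, 11.6% at 18, 11.6% at 20, 11.8% at 22, 12.9% at 24, 11.7% at 26 and 10.7% at 28 DPA. Wholly above day 0 lay 1.54% of all probes at 0.5 DPA, 5.05% at 7, 6.02% at 14, 6.89% at 16, 8.00% at 18, 6.50% at 20, 7.06% at 22, 8.80% at 24, 8.85% at 26 and 7.29% at 28 DPA. By its mean, NGFR stood above 47.9% of all probes at day 0, against 60.8, 46.7 and 62.0% at 0.5, 3 and 28 DPA, so it stayed a probe of middling intensity.

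Within single code series the second increase was near the fold limit. NGFR was 0.58 higher at 9 than at 3 DPA (SE 0.11, adjusted p = 0.000835), where 2.40% of all probes rose, and 0.59 higher at 18 than at 10 DPA (SE 0.11, adjusted p = 0.00076), where 2.56% did. Both calls were lost without replicate 2, 5 or 7, and 1 of them without replicate 1, 4, 6, 8 or 9, while the smallest difference was 0.53 for 9 against 3 DPA and 0.54 for 18 against 10 DPA. The difference at 28 against 20 DPA (0.56, adjusted p = 0.109) did not pass with all arrays. Replicates 1 to 5 alone did pass there (0.62, adjusted p = 0.00856), while the other set rose by 0.41. Across the change of codes, the difference at 28 against 18 DPA (0.48, adjusted p = 0.134) did not pass with all arrays either. This mean joined unlike sets. NGFR went up by 0.82 over that span for replicates 1 to 5. For replicates 6 to 10 the net change was only 0.04, from a mean of 6.64 to one of 6.68. In the order of its 20 means, 2 of 19 neighbouring levels differed beyond their spread, 14 DPA over 7 DPA by 0.37 and 5 DPA over 1.5 DPA by 0.32.

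At the late stages the size of the NGFR increase differed between the sets of replicates. At 28 DPA its 4 arrays of replicates 6 to 10 read 6.55 to 6.87 and the 5 arrays of replicates 1 to 5 read 7.36 to 7.67, with changes from day 0 of 1.09 (replicates 6 to 10) and 1.89 (replicates 1 to 5), a difference of −0.79 (SE 0.12, interaction adjusted p = 0.00255). At 20 DPA replicates 6 to 10 read 6.02 to 6.47, a change of 0.68, and replicates 1 to 5 read 6.76 to 7.09, a change of 1.27 (difference −0.59, SE 0.13, adjusted p = 0.0395). The increase was thus larger in replicates 1 to 5 at both times, and present in both sets. In the same interaction 0.868% of all probes passed at 20 DPA and 6.94% at 28 DPA, and at the other 17 time points NGFR did not pass. At 0.5 DPA NGFR was 1.19 above day 0 for replicates 6 to 10 and 1.55 above it for replicates 1 to 5 (difference −0.36, SE 0.18, interaction adjusted p = 0.888).

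Basal epidermis is another place where NGFR is made in mammals, and its markers moved as well, and their part in the NGFR result was not tested. At 0.5 DPA, the time of the NGFR peak, COL17A1 was 0.60 higher (adjusted p = 0.00024) and ITGA6 0.66 higher (adjusted p = 0.00382) than at day 0, both genes of the attachment of basal cells to the basement membrane. TP63, ITGB4 and LAMB3, also of the basal epidermis list, did not pass at 0.5 DPA, when 2.80% of all probes rose. Of 5 basal epidermis genes 2 were up at 1, 4 at 3, 2 at 10, 1 at 18 and 0 at 28 DPA, and ITGA6 was down at 28 DPA (−0.85, adjusted p = 0.00193). Of all probes 4.95, 8.87, 11.7, 11.6 and 10.7% rose at these times, and 8.31% fell at 28 DPA. Their summed level was 13.38 to 13.80 at 3 DPA, when NGFR was at its day 0 level, and 12.25 to 13.09 at 28 DPA, when NGFR was near its highest, against 12.13 to 12.80 at day 0.

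**Figure D4:**
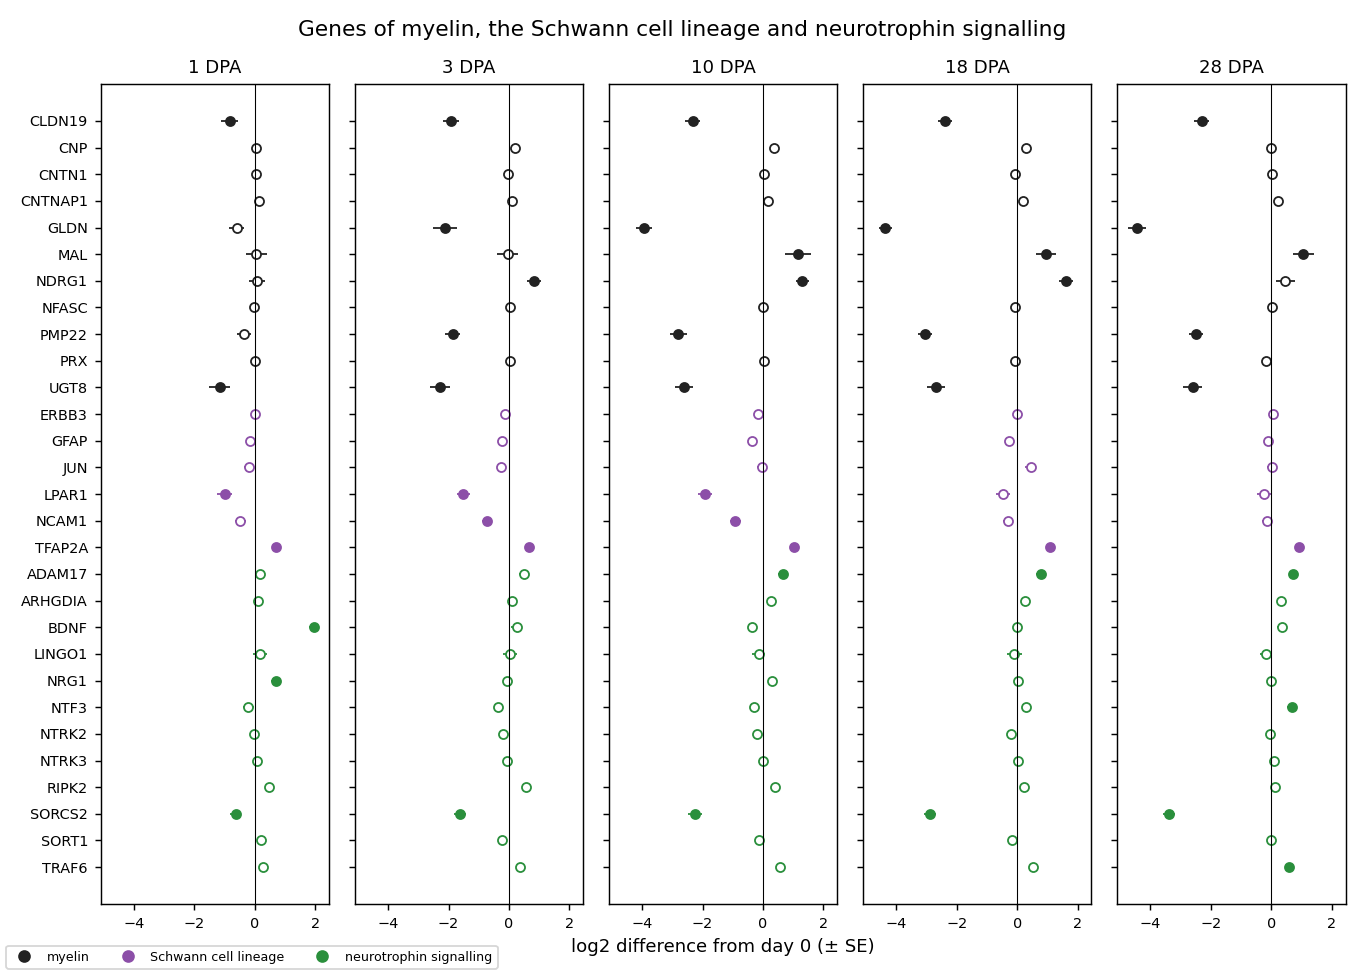
log2 difference from day 0 with its SE (x axes) at 1, 3, 10, 18 and 28 DPA for each measured gene of the myelin (11 genes), Schwann cell lineage (6 genes) and neurotrophin (12 genes) lists (y axis), with filled points where the threshold was passed. PMP22, CLDN19, UGT8 and GLDN fell in the myelin list, SORCS2 fell throughout, and BDNF was 1.96 above day 0 at 1 DPA.

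Of the 20 genes in the neurotrophin list 12 have a probe, among them ligands, co-receptors, signal transducers and cleaving enzymes of NGFR, and also the growth factor gene NRG1. At 1, 3, 10, 18 and 28 DPA 2, 0, 1, 1 and 3 of them rose and 1, SORCS2, fell each time. Over all probes 4.95, 8.87, 11.7, 11.6 and 10.7% rose and 4.97, 9.74, 9.67, 8.70 and 8.31% fell at these times, and 1 of 12 is near those shares. BDNF, a ligand of NGFR and of the receptor kinase NTRK2, rose at 0.5 DPA as NGFR did. It averaged 7.18 ± 0.60 at 0.5 DPA, against 4.82 ± 0.28 at day 0 (difference 2.37, SE 0.20, adjusted p = 1.56e-08), and was still 1.96 higher at 1 DPA (SE 0.15, adjusted p = 4.41e-09), by when NGFR had come back under the fold limit. NTF3, which encodes neurotrophin 3, passed only from 20 to 28 DPA. It averaged 6.82 ± 0.40 at 28 DPA, against 6.13 ± 0.42 at day 0 (difference 0.69, SE 0.18, adjusted p = 0.00345).

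SORCS2, a sortilin-family co-receptor of NGFR for pro-neurotrophins, went against NGFR. It averaged 4.87 ± 0.50 at 28 DPA, against 8.25 ± 0.39 at day 0 (difference −3.38, SE 0.19, adjusted p = 1.23e-11), and was down at 18 of the 19 later time points. ADAM17, a protease that sheds the NGFR ectodomain, rose by 0.79 at 18 DPA (SE 0.16, adjusted p = 0.000397) and passed at 12 of the 19. NRG1, the axonal growth factor that controls myelin thickness in mammals, was up only at 0.5 DPA (0.60, adjusted p = 0.000513) and 1 DPA (0.69, adjusted p = 0.000914). TRAF6, an adaptor that binds NGFR, was 0.59 higher at 28 DPA (adjusted p = 8.85e-06), at the fold limit. The receptor kinase genes NTRK2 and NTRK3, the co-receptor genes SORT1 and LINGO1 and the NGFR-binding ARHGDIA passed at none of the 19 time points. NTRK2 averaged only 3.89 over all arrays, above 16.8% of all probes.

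Of the Schwann cell lineage list 6 of 19 genes have a probe, and only 3 of them passed at any time. At 1, 3, 10, 18 and 28 DPA 1 of the 6 rose each time and 1, 2, 2, 0 and 0 fell. Over all probes 4.95, 8.87, 11.7, 11.6 and 10.7% rose and 4.97, 9.74, 9.67, 8.70 and 8.31% fell at these times. TFAP2A, a transcription factor of neural crest and Schwann cell precursors that is also made in epidermis, averaged 11.16 ± 0.18 at 18 DPA, against 10.07 ± 0.22 at day 0 (difference 1.10, SE 0.09, adjusted p = 1.55e-09), and was up from 1 to 28 DPA. LPAR1, a lysophosphatidic acid receptor of Schwann cells, and NCAM1, an adhesion molecule of non-myelinating Schwann cells and nerve, were lower at 10 DPA and near day 0 at 28 DPA. LPAR1 averaged 7.40 ± 0.47 at 10 DPA, against 9.32 ± 0.62 at day 0 (difference −1.92, SE 0.23, adjusted p = 7.12e-07), and at 28 DPA the difference was −0.23 (adjusted p = 0.509). For NCAM1 the difference was −0.92 at 10 DPA (SE 0.18, adjusted p = 0.000222) and −0.14 at 28 DPA (adjusted p = 0.487). ERBB3, GFAP and JUN, the last a driver of the repair state of Schwann cells in mammals, passed at none of the 19 time points. ERBB3 averaged only 3.62 over all arrays, above 8.87% of all probes. Among 9 axon genes 0 passed at 1 and 3 DPA and 1, UCHL1, was down at 10 DPA (−0.89, adjusted p = 0.00656), when 9.67% of all probes fell. At 18 DPA UCHL1 (−1.23, adjusted p = 0.000336) and MAP1B (−0.59, adjusted p = 0.00426) were lower and TUBB3 was higher (1.07, adjusted p = 0.00557), and at 28 DPA the same 3 passed in the same directions, MAP1B at −0.87 (adjusted p = 0.00031). At 18 DPA TUBB3 was 1.89 higher in replicates 6 to 10 alone and 0.26 higher, not past the threshold, in replicates 1 to 5 alone, and the MAP1B call was lost with arrays centred on their medians (−0.56) or without replicate 5, 6, 7, 8 or 9 (−0.58 to −0.51). NEFL, NEFM, NEFH, STMN2, GAP43 and SYT1 passed at none. Over all arrays SYT1 averaged 3.21, NEFM 3.84, STMN2 4.50 and NEFL 4.55, so low signal limits what these 4 can show. The summed axon level was 8.52 to 9.37 at 18 DPA, against 8.93 to 10.43 at day 0.

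Whether arrays of the same time point that were high in MBP were also high in NGFR was asked on deviations from the time means over all arrays, as 1 of 19 relations of the brighter MBP probe (2-sided, 100000 permutations within time points, p adjusted over the 19). No relation of MBP with NGFR was found, with r = −0.009 (95% interval −0.155 to 0.138, adjusted p = 0.934) and rho = −0.009 (adjusted p = 0.897), and r = −0.014 without the 2 arrays farthest from the median. Within time point and set of replicates r was −0.045. Over the 20 time means MBP and NGFR correlated at r = −0.592 (rho = −0.644), as a description.

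MBP was related to the myelin genes that fell, and to none of the other measured myelin genes in that direction. For GLDN r was 0.530 (interval 0.415 to 0.628, adjusted p = 4.75e-05, rho = 0.470, adjusted p = 3.8e-05), for PMP22 0.498 (rho = 0.469), for UGT8 0.450 (rho = 0.302, adjusted p = 0.000546) and for CLDN19 0.430 (rho = 0.426). The relations held within time point and set of replicates (0.434 for GLDN, 0.489 for PMP22, 0.486 for UGT8, 0.374 for CLDN19) and without the 2 farthest arrays (0.432 to 0.535). A permutation p of 1e-05 is the smallest that 100000 draws can give here, and GLDN, PMP22, NCAM1 (r = 0.396) and LPAR1 (r = 0.354) reached it, with 2e-05 for UGT8 and CLDN19. TFAP2A, PRX and NDRG1 were related the other way, at r = −0.362, −0.286 and −0.253 (adjusted p = 5.43e-05, 0.000422 and 0.000456). Within time point and set of replicates these were weaker, at −0.290 for TFAP2A, −0.147 for PRX and −0.154 for NDRG1, with no test made there. CNP, NFASC, CNTN1 and CNTNAP1 were not related to MBP (r = −0.075, −0.033, −0.006 and −0.056, adjusted p = 0.504 to 0.941). For MAL r was −0.134 (adjusted p = 0.148), and only the relation by rank passed (rho = −0.175, adjusted p = 0.0425). ERBB3, GFAP and JUN of the Schwann cell lineage list did not pass.

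**Figure D5:**
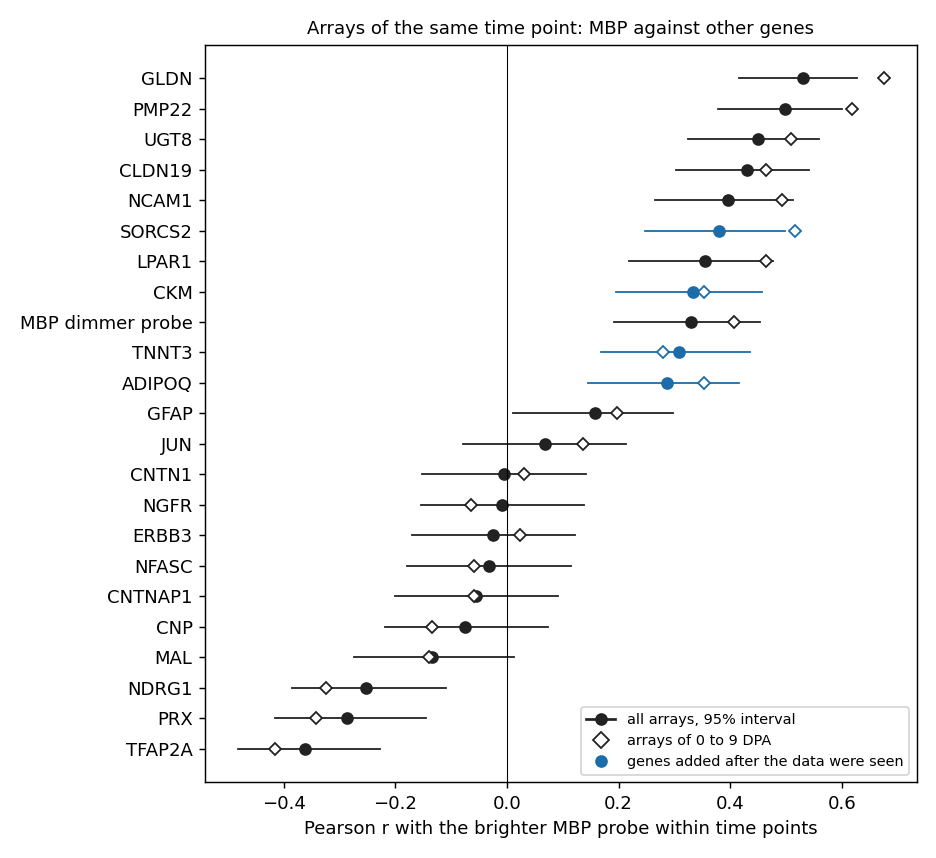
Pearson's r (x axis) between the brighter MBP probe and each other gene (y axis) after the mean of each time point was taken off, with the 95% interval over all arrays (filled) and the value over the 100 arrays of 0 to 9 DPA (open diamonds), and with genes added after the data were seen in blue. GLDN (0.530) and PMP22 (0.498) lay highest, NGFR was at −0.009 and TFAP2A lowest at −0.362.

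The coefficients were higher over the days of the fall, a difference that was not tested. Over the 100 arrays of 0 to 9 DPA r was 0.676 for GLDN, 0.618 for PMP22, 0.509 for UGT8 and 0.464 for CLDN19, and −0.064 for NGFR. Over the 98 arrays of 10 to 28 DPA, where MBP was low, it was 0.146 for GLDN, 0.334 for PMP22, −0.144 for UGT8 and 0.149 for CLDN19. The dimmer MBP probe was related to the brighter one at r = 0.329 (adjusted p = 0.000422), while the relation by rank did not pass (rho = 0.153, adjusted p = 0.0991). Genes added after the data were seen were related to MBP as well, with r = 0.380 for SORCS2 (0.516 over 0 to 9 DPA), 0.333 for CKM, 0.308 for TNNT3 and 0.287 for ADIPOQ (adjusted p = 2.87e-05 over 23 relations for each). Over 10 to 28 DPA CKM (0.561) and TNNT3 (0.554) had higher coefficients than the myelin genes. The part that the make-up of each tissue sample plays in these relations was not tested.

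By the shape of the course over the 20 time means, the 10 named genes most like the brighter MBP probe were MYOZ2, TNXB, TMEM38A, TRDN, RTN2, TPM1, MYOT, MYBPH, SMYD1 and SMTNL2, with Pearson's r of 0.995 to 0.997. In all, 331 genes had r above 0.9 with it, so that the likeness picks out no small group, and ranking by Spearman's rho kept 1 of the 10. The 10 by Spearman's rho included MYL1 (0.988) and TNNC2 (0.985), both of the skeletal muscle list. The part of muscle in this likeness was not tested. For the dimmer MBP probe the 10 were MYOT (0.982), ASB15, UQCRC2, NDUFA5, MYPN, MYF5, NRAP, PDLIM3, USP28 and SLMAP (0.973), and 206 genes were above 0.9. For NGFR the 10 were NR4A2 (0.889), PAN2, PLA2G4F, BPTF, VPS54, TMEM52, WDR13, TRIM28, ASXL1 and RAVER1 (0.862), and 0 genes were above 0.9. Ranking by Spearman's rho kept 6 of the 10 for NGFR.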

How the data were processed

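The authors normalized the scans by RMA, in Affymetrix Expression Console (versions not given in the sources used here), and the log2 values they deposited were used without change. Titles, descriptions and time labels gave each array's group. Of 20080 probes, 45 Affymetrix controls were left out, and 10951 carry 1 gene symbol (8639 genes). The members and gene lists were chosen with earlier results of these data known.

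Each comparison was fitted with limma 3.58.1 in R 4.3.3 on the arrays of its 2 time points, with p adjusted over all 20035 probes. Of each list gene, the probe of highest mean was used. The naming rule took both members, genes of the myelin, Schwann cell lineage and neurotrophin lists that passed at 1, 3, 10, 18 or 28 DPA, up to 4 of each other list by size of difference, and the 10 most like each member. List genes that passed at none, and marker genes beyond the rule, were named after their values were seen. On data simulated for 3 against 0 DPA limma recovered 88% of changes of 0.8 and 94% of changes of 1 on the log2 scale. The changed probes were drawn at random, so these rates need not hold for the brighter MBP probe (SD 1.11 at day 0 and 1.49 at 3 DPA). Alternatives covered scaling, thresholds, the methods' t-test, filters, blocks, array weights and left-out replicates. The number of arrays limits the precision. Means are given ± SD. Correlations were computed with scipy 1.17.1 and numpy 2.4.6 under Python 3.11.15.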

Additional observations from a re-analysis of the deposited data

Results flagged for a closer look

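On the brighter MBP probe at 5 DPA, the array of replicate 2 read 5.11, far below the other 9 arrays of that time, which ran from 6.73 to 8.49. It was the only array that stood apart in this way among 60 groups of arrays (3 probes at 20 time points), where chance gives about 1 in 20 groups. With replicate 2 left out of every time point, MBP passed in 1 of the 19 neighbouring intervals, against 0 with all arrays. Replicate 2 was also the lowest array at 9 DPA (4.44) and the highest at 10 DPA (6.19). That count therefore does not show the effect of the 5 DPA array alone.

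The change of NGFR from day 0 was smaller in replicates 6 to 10 than in replicates 1 to 5, by −0.59 at 20 DPA and by −0.79 at 28 DPA on the log2 scale, and both differences passed the interaction test over all probes. The letter codes differ between the sets, and the cause of the difference was not tested.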

How the results depend on the processing

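The MAL difference at 10 DPA changed sign, from 1.16 with all arrays to −0.10 with replicates 6 to 10 alone. No reversal was found among the other results followed through the alternatives. Of the counts of calls and other summaries, 213 values under alternatives with all or a chosen set of replicates stayed within 1.5 times and 23 did not. With replicates 6 to 10 alone, the brighter MBP probe passed in 1 neighbouring interval, the dimmer MBP probe at 3 of 19 time points and in 0 spans, and NGFR in 1 neighbouring interval and 1 span. With replicates 1 to 5 alone the dimmer MBP probe passed in 0 spans. With a 2-fold limit the dimmer MBP probe passed at 6 time points and in 0 spans, and NGFR in 1 neighbouring interval and 0 spans. Leaving out 1 replicate number at a time gave 0 to 1 neighbouring intervals for the brighter MBP probe and 0 to 2 spans for NGFR. The filter on dim probes left no value for the dimmer MBP probe.

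Summed over 1, 3, 10, 18 and 28 DPA, myelin genes passed upward 6 times, 3 times with the methods' t-test at p = 0.01, 1 time with replicates 6 to 10 alone and 3 to 6 times without single replicates (3 without replicate 5). Schwann cell lineage genes passed downward 5 times, 2 times with a 2-fold limit or with replicates 6 to 10 alone and 8 times with replicates 1 to 5 alone, and upward 5 times, 2 times with a 2-fold limit and 3 times with replicates 6 to 10 alone. Neurotrophin genes passed downward 5 times and 9 times with replicates 1 to 5 alone, and upward 7 times, 18 times with no fold limit and 1 time with a 2-fold limit. The cause of these changes was not tested. Ranking by Spearman's rho kept 1 of the 10 genes most like either MBP probe and 6 for NGFR.

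Replicate numbers did not pair the samples: arrays of different times deviated together no more with the same number (mean r = 0.0434) than with another number of the same set (0.0427). With the replicate block the brighter MBP probe was down at 18 of 19 time points in place of 17, since 1 DPA passed (adjusted p = 0.0223). MAL lost its call at 10 DPA (adjusted p = 0.0692) and at 18 DPA (adjusted p = 0.0529), and the counts of the other members did not change. Low signal limits the dimmer MBP probe.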
